A study of Mus musculus with 3 samples.

Results

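The genes described here were 27 genes of sterol and fatty acid synthesis, chosen by name from the 28692 genes of the deposited tables. They comprised 17 sterol genes (the mevalonate enzymes *Hmgcs1*, *Mvk*, *Pmvk*, *Mvd*, *Idi1* and *Fdps*, the later enzymes *Fdft1*, *Sqle*, *Lss*, *Cyp51*, *Msmo1*, *Nsdhl*, *Sc5d* and *Dhcr7*, and the regulators or carriers *Insig1*, *Stard4* and *Srebf2*) and 10 fatty acid genes (*Srebf1*, *Fasn*, *Scd1*, *Scd2*, *Acaca*, *Acly*, *Elovl5*, *Elovl6*, *Acss2* and *Me1*). All 27 genes were found in the tables. Their levels were read in single-cell RNA-seq of small intestinal crypts from C57BL/6 mice of 2 to 3 months, prepared with the 10x Genomics Chromium Single Cell 3' v3 kit. All mice carried Olfm4-IRES-eGFPCreERT2, a tamoxifen-inducible Cre driven from *Olfm4*, a gene of crypt base stem cells. The Rescue library had the genotype CDC42flox/flox, Yapflox/flox and Tazflox/+, the KO library CDC42flox/flox, and the Het library, taken as the control of the series' design, CDC42+/flox. How many mice made up a library is not stated in the labels. There was 1 library per genotype, so no test between genotypes could be made, and every interval given is an exact 95% interval that covers counting error only.

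Sterols and fatty acids are both built from acetyl-CoA in the cytosol. The mevalonate enzymes make farnesyl diphosphate, from which squalene, lanosterol and finally cholesterol are formed, whereas acetyl-CoA carboxylase and fatty acid synthase make palmitate, which is then elongated and desaturated. Both branches are controlled by the SREBP transcription factors, which are held in the endoplasmic reticulum with INSIG when sterols are plentiful and released to the nucleus when they are scarce. In the intestine, dividing crypt cells need new membrane, and enterocytes of the villus handle dietary cholesterol and fat.

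Barcodes were taken as epithelial where they had at least 2 *Epcam* UMIs, no *Ptprc* UMI, 500 or more genes detected, a total of 1000 UMIs or more, and no more than 20% of UMIs from mitochondrial genes. This left 726 barcodes in Rescue, 1504 in KO and 515 in Het, with a median of 46115, 41467 and 33401 UMIs in the same order of libraries, and no gated barcode sequence was shared between libraries. Within them, Lgr5-positive barcodes (at least 1 *Lgr5* UMI, a stem cell marker) numbered 70 in Rescue, 17 in KO and 157 in Het. Mki67-positive barcodes (at least 2 UMIs of the proliferation marker *Mki67*) numbered 247 in Rescue, 213 in KO and 77 in Het. Fabp1-high barcodes (enterocyte marker *Fabp1* at 5000 CPM or more) numbered 208 in Rescue, 806 in KO and 125 in Het, and Muc2-high barcodes (goblet marker *Muc2* at 500 CPM or more and at least 3 UMIs) 49 in Rescue, 207 in KO and 87 in Het. A barcode could be in more than 1 of these types. UMIs were summed over the barcodes of a type and given as CPM, in which the total UMIs of the type in a library are scaled to the same sum. The floxed target *Cdc42* was at 383 CPM in Rescue, 384 in KO and 249 in Het over all gated barcodes, so its summed level was not lower in KO than in Het. *Yap1* was at 20.4 CPM in Rescue, 24.6 in KO and 26.4 in Het, and *Wwtr1*, which encodes TAZ, at 2.86 CPM in Rescue, 13.3 in KO and 7.33 in Het. A 3' count does not check the removal of an exon upstream of the transcript's end.

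RefSeq promoter windows on GRCm38.p6 were available for 13 of the 17 sterol genes and 8 of the 10 fatty acid genes. They are shown because both branches are SREBP targets, and SREBP is known to act beside the factor NF-Y. The windows took the 250 bases upstream of an annotated start, and some genes had more than 1 window. A gene was counted where any of its windows held a match. Among the sterol genes, 13 of 13 held the NF-Y letters CCAAT on either strand. The shares were 37.5% of all 27025 genes with a window and 40.8% of the genes measured here. For *Dhcr7* and *Me1* the CCAAT matches lay only in a window at a start inside the gene. Of the fatty acid genes 5 of 8 held it. The sterol regulatory element TCACNCCAC was found in *Hmgcs1* and in no other member, against 1.22% of genes, so that this one spelling of a variable element was rare throughout. The Sp1 letters GGGCGG were found in 12 of 13 sterol and 4 of 8 fatty acid genes, against 65.5% of measured genes. The E-box letters CANNTG were found in 9 of 13 and 5 of 8, against 61.3%. A match describes letters and is not evidence that a factor bound there. *Hmgcs1* carried the sterol regulatory element, whereas *Mvk* and *Fasn* were chosen, after the matches were seen, as a mevalonate and a fatty acid gene. Capitals mark TCACNCCAC and CCAAT on either strand (read as ATTGG on the opposite one), and each sequence is written 5′ to 3′ along the gene's own strand. The *Hmgcs1* window is chr13:119690101-119690350 (plus strand), the *Mvk* window chr5:114444019-114444268 (plus strand) and the *Fasn* window chr11:120824548-120824797 (minus strand).
Hmgcs1: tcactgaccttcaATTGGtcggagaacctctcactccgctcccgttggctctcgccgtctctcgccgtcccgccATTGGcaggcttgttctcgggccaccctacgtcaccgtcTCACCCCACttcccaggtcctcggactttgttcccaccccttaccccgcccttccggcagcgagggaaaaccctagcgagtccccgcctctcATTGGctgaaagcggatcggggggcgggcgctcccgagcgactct
Mvk: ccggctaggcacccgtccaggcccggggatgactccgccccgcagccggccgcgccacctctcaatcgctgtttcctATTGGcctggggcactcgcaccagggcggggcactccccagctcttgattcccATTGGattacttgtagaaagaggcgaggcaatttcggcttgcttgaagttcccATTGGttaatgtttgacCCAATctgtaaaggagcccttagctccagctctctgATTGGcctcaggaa
Fasn: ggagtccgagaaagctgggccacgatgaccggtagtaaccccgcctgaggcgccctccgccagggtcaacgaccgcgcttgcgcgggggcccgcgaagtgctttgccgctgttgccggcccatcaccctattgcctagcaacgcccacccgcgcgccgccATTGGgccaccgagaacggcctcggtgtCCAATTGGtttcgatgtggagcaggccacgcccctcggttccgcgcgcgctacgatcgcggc
The *Hmgcs1* window had its sterol element at bases -137 to -129 (the base before the annotated start being -1) and 3 CCAAT matches. *Mvk* had 5 CCAAT matches in the same length. In *Fasn* the 3 CCAAT matches included a pair that overlap each other and an E-box, and the outermost CCAAT match of *Hmgcs1* also overlaps an E-box.

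In Mki67-positive barcodes, in which 5 cycling markers summed to 698 CPM in Rescue, 541 in KO and 402 in Het, 13 of the 27 genes were past 2-fold higher in KO than in Het and none was past 2-fold lower. A gene was counted as past 2-fold where it had at least 20 UMIs in 1 of the libraries and its interval excluded 1, and by that rule 8.46% of all 10628 genes measured there were higher and 7.58% lower. Of the 13, *Scd1* and *Scd2* reached 20 UMIs only in KO, so they entered the count through the library in which they were high. The median log2 ratio of KO over Het (with 1 CPM added to each level) was 0.83 for the sterol genes and 1.43 for the fatty acid genes, against 0.08 for all genes, and all 27 genes lay above 0. Summed over the 17 sterol genes, the level was 1458 CPM (1441 to 1476) in Rescue, 2059 CPM (2034 to 2085) in KO and 1127 CPM (1093 to 1161) in Het. The 10 fatty acid genes summed to 423 CPM (414 to 433) in Rescue, 792 CPM (777 to 808) in KO and 228 CPM (214 to 244) in Het. Both sums were highest in KO and lowest in Het.

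Among the sterol genes, the highest ratios of KO over Het were those of 4 genes that make and join isoprenoid units, *Pmvk*, *Fdps*, *Mvd* and *Mvk*. *Fdps*, which encodes farnesyl diphosphate synthase at the branch point of the pathway, was at 220.2 CPM (214 to 227) in Rescue, 358 CPM (348 to 369) in KO and 119 CPM (108 to 130.1) in Het, and was 3.01-fold higher (2.74 to 3.33) in KO than in Het. *Pmvk*, the phosphomevalonate kinase, was at 84.2 CPM in Rescue, 160.3 in KO and 51.2 in Het, which was 3.13-fold higher (2.70 to 3.64) in KO than in Het. *Mvk*, the mevalonate kinase one step before it, was at 38.2 CPM in Rescue, 65.8 in KO and 26.4 in Het, a KO level 2.49-fold higher (2.03 to 3.09) than Het. In all of these genes Rescue lay between KO and Het. *Mvd*, the decarboxylase that follows, was at 38.4 CPM in Rescue, 60.0 in KO and 22.8 in Het and 2.64-fold higher (2.11 to 3.33) in KO than in Het. *Idi1*, the isopentenyl diphosphate isomerase, was at 159 CPM in Rescue, 231 in KO and 122 in Het and stayed within 2-fold in KO over Het (1.90-fold higher, 1.72 to 2.09). *Hmgcs1*, the synthase that feeds the whole branch and whose window is printed above, was at 165 CPM in Rescue, 219 in KO and 166 in Het, a KO level only 1.32-fold higher (1.21 to 1.44) than Het. The pathway's first enzyme in this list therefore differed less than the kinases and the synthase downstream of it.

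Of the enzymes from squalene to cholesterol, 3 of 8 were past 2-fold higher in KO than in Het. *Lss*, which closes the sterol rings as lanosterol synthase, was at 17.5 CPM in Rescue, 29.9 in KO and 12.7 in Het, with KO 2.36-fold higher (1.75 to 3.24) than Het. *Cyp51*, the lanosterol demethylase, was at 100.1 CPM in Rescue, 184 in KO and 85.9 in Het, with KO 2.14-fold higher (1.90 to 2.41) than Het. *Nsdhl*, a dehydrogenase that also serves demethylation, was at 39.8 CPM in Rescue, 49.9 in KO and 21.5 in Het, with KO 2.32-fold higher (1.85 to 2.96) than Het. The squalene synthase *Fdft1*, the squalene epoxidase *Sqle*, the methylsterol oxidase *Msmo1*, the desaturase *Sc5d* and the final reductase *Dhcr7* stayed within 2-fold. *Fdft1* was at 49.8 CPM in Rescue, 74.3 in KO and 44.0 in Het, and *Sqle* at 79.5 CPM in Rescue, 96.7 in KO and 61.1 in Het. *Msmo1* was at 118 CPM in Rescue, 136 in KO and 91.3 in Het, *Sc5d* at 43.4 CPM in Rescue, 59.1 in KO and 32.9 in Het, and *Dhcr7* at 38.6 CPM in Rescue, 40.3 in KO and 32.1 in Het, KO being highest for all of them. Among these 5 the ratio ran between 1.26-fold higher (1.03 to 1.54) for *Dhcr7* and 1.80-fold higher (1.49 to 2.19) for *Sc5d*. The regulators and the carrier also stayed within 2-fold. *Insig1*, which retains SREBP in the endoplasmic reticulum and is itself a target of SREBP, was at 101 CPM in Rescue, 114 in KO and 89.0 in Het. *Srebf2*, which encodes the SREBP of the sterol branch, was at 49.0 CPM in Rescue, 58.9 in KO and 37.8 in Het, 1.56-fold higher (1.304 to 1.87) in KO than in Het. *Stard4*, a cytosolic carrier of cholesterol, was at 116 CPM in Rescue, 123 in KO and 112 in Het, nearly level across the 3 libraries.

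**Figure D1:**
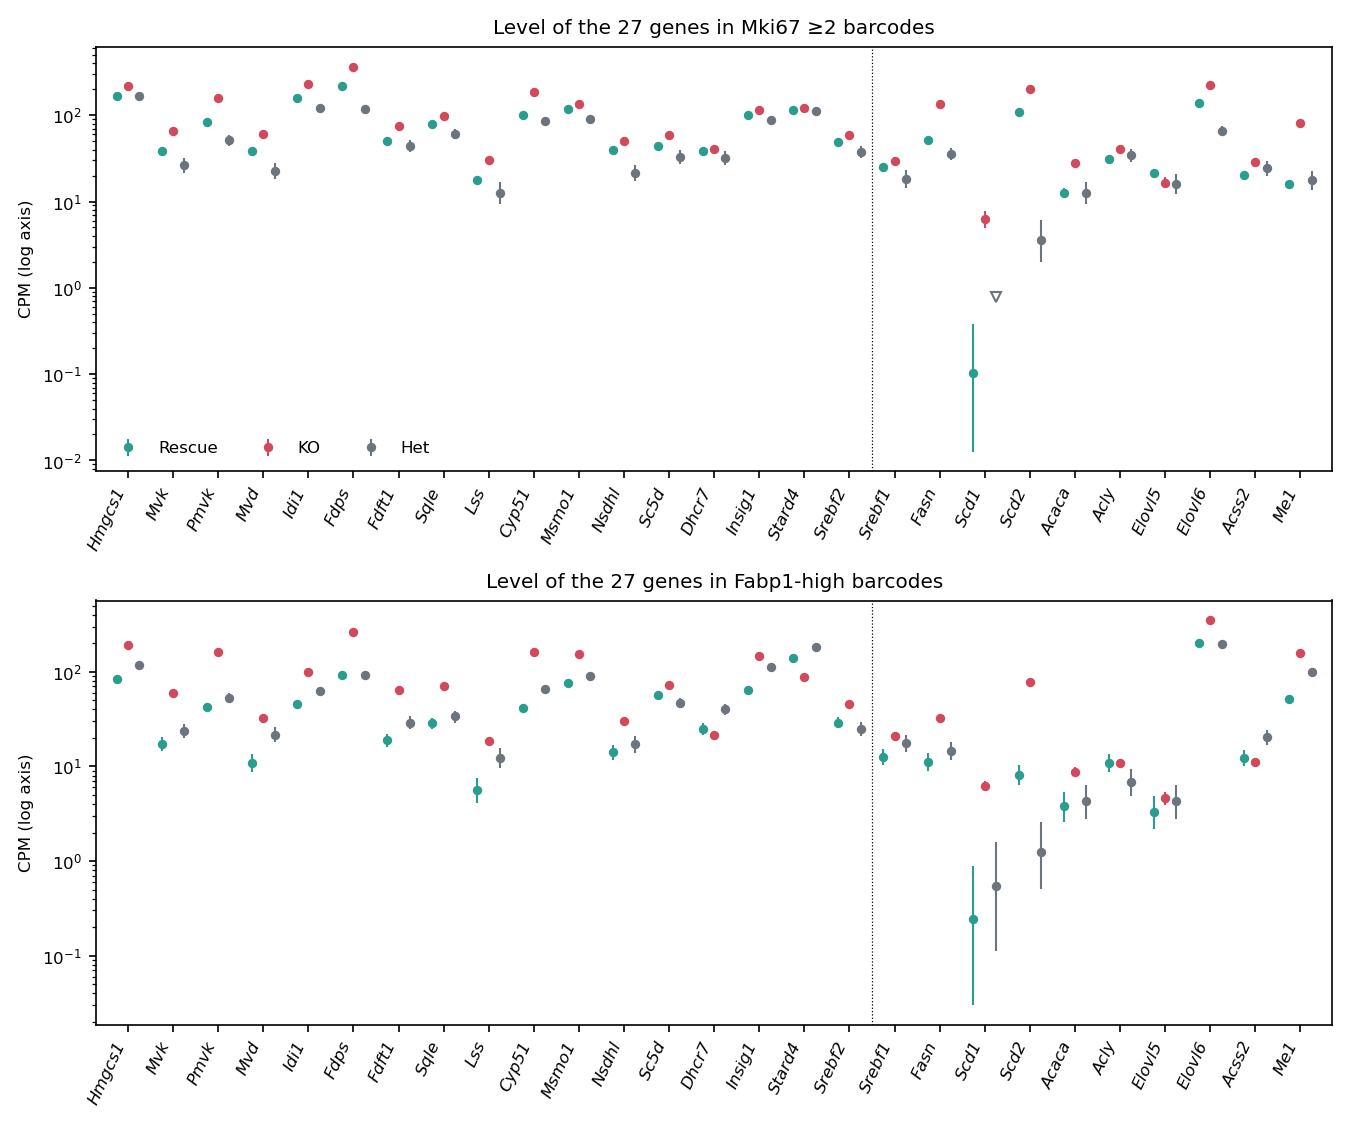
Level of each of the 27 genes (CPM, log axis) in Mki67-positive barcodes (upper panel) and Fabp1-high barcodes (lower panel), with points for Rescue, KO and Het and bars for exact 95% Poisson intervals. An open triangle marks a gene with no UMI, drawn at the limit that 3 counts give, as for *Scd1* in Het in the upper panel. In the upper panel the KO point lies above the Het point for the mevalonate kinases, *Fdps*, *Fasn*, *Scd2* and *Me1*, and in the lower panel the Rescue point of many sterol genes lies near or below the Het point.

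Fatty acid genes gave the widest differences between KO and Het. *Fasn*, the fatty acid synthase, was at 51.6 CPM (48.4 to 54.9) in Rescue, 136 CPM (129.6 to 143) in KO and 35.7 CPM (29.99 to 42.2) in Het, and was 3.81-fold higher (3.20 to 4.57) in KO than in Het. *Me1*, the malic enzyme that supplies NADPH for synthesis, was at 16.0 CPM (14.2 to 17.9) in Rescue, 81.2 CPM (76.3 to 86.3) in KO and 17.6 CPM (13.7 to 22.3) in Het, and was 4.62-fold higher (3.61 to 5.99) in KO than in Het. *Elovl6*, which elongates palmitate, was at 138 CPM in Rescue, 226 in KO and 65.5 in Het, with KO 3.45-fold higher (3.03 to 3.94) than Het. KO was highest for all of these, and for *Me1* Rescue and Het had overlapping intervals. *Acaca*, the acetyl-CoA carboxylase, was at 12.7 CPM in Rescue, 28.2 in KO and 12.7 in Het, with KO 2.23-fold higher (1.65 to 3.06) than Het. *Srebf1*, which encodes the SREBP of the fatty acid branch, was at 24.8 CPM in Rescue, 29.6 in KO and 18.4 in Het and within 2-fold (1.61-fold higher, 1.25 to 2.11, in KO than in Het). The enzymes that supply acetyl-CoA, *Acly* and *Acss2*, and the elongase of polyunsaturated chains, *Elovl5*, were within 2-fold as well, with *Acly* at 31.2 CPM in Rescue, 40.6 in KO and 34.7 in Het. *Acss2* was at 20.5 CPM in Rescue, 28.6 in KO and 24.3 in Het, and *Elovl5*, at 21.1 CPM in Rescue, 16.6 in KO and 16.0 in Het, was the one fatty acid gene highest in Rescue. The synthase, the carboxylase, the palmitate elongase, the malic enzyme and the desaturases were thus past 2-fold, and the genes of the acetyl-CoA supply were not.

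The stearoyl-CoA desaturase genes *Scd2* (chr19:44293674-44306864, plus strand) and *Scd1* (chr19:44394455-44407879, minus strand; GRCm38, GENCODE vM21) lie in 1 cluster. They encode the enzymes that place the double bond in stearate and palmitate, and gave the most extreme values among the 27 genes. *Scd2* was at 108 CPM (103 to 113) in Rescue, 199 CPM (191 to 207) in KO and 3.62 CPM (1.98 to 6.08) in Het in Mki67-positive barcodes, with 2070 UMIs in Rescue, 2500 in KO and 14 in Het. It was 55.0-fold higher (32.7 to 101) in KO than in Het and 29.8-fold higher (17.7 to 54.5) in Rescue than in Het. The low Het level was seen in each type: *Scd2* was at 49.96 CPM in Rescue, 81.8 in KO and 1.99 in Het in Lgr5-positive barcodes, at 8.14 CPM in Rescue, 78.8 in KO and 1.26 in Het in Fabp1-high barcodes and at 91.96 CPM in Rescue, 111 in KO and 2.66 in Het in Muc2-high barcodes. Outside the epithelium, in barcodes with at least 2 *Ptprc* UMIs and no *Epcam* UMI, *Scd2* was at 35.7 CPM in Rescue, 30.1 in KO and 11.3 in Het, so Het was lowest there too. With 1 Het library, its genotype and a cause specific to that library cannot be told apart. After each barcode was thinned to 2000 UMIs, *Scd2* was found in 14.6% of Mki67-positive barcodes in Rescue, 33.3% in KO and 0 of 77 in Het, which allows a share of up to 3.90%, and without thinning in 86.6%, 93.9% and 9.09% in the same order. In the *Ptprc* barcodes the thinned shares were 6.29% in Rescue, 9.90% in KO and 1.75% in Het, at a median of 4852, 5165 and 5008.5 UMIs, against 64297, 51084 and 44274 UMIs in the Mki67-positive barcodes. *Scd1* had 2 UMIs in Rescue, 79 in KO and 0 in Het in Mki67-positive barcodes. Against a limit of 3 counts in Het, KO was at least 8.11-fold higher, and Rescue was 60.5-fold lower (16.2 to 508) than KO. *Scd1* was therefore counted almost only in KO, whereas *Scd2* was counted in KO and Rescue. The 2 genes are close paralogs, and whether reads were split between them was not tested.

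The make-up of the Mki67-positive barcodes differed between libraries, and the count past 2-fold changed with the barcodes kept. Summed over 7 enterocyte markers, the level there was 2158 CPM in Rescue, 9462 in KO and 2686 in Het, over 6 stem cell markers 458 CPM in Rescue, 253 in KO and 969.7 in Het, and over 4 Paneth cell markers 2703 CPM in Rescue, 72.0 in KO and 56655 in Het. Over 11 immune markers it was 32.1 CPM in Rescue, 8.77 in KO and 25.1 in Het, with *Ptprc* at 0 by the gate. The part of the enterocyte and stem cell markers in the ratios was not tested. With barcodes of exactly 1 type, which left 36 in Het, 6 genes were past 2-fold higher in KO than in Het (*Pmvk*, *Fdps*, *Fasn*, *Scd1*, *Scd2* and *Me1*), against 6.1% of all genes. With at most 10% mitochondrial UMIs, which left 27 Het barcodes, the count was 21, against 18% of all genes. Without barcodes that had over 1% Paneth UMIs it was 11, against 6.55%.

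In Mki67-positive barcodes the genes past 2-fold lower in Rescue than in KO were all fatty acid genes. Past 2-fold lower were 4 of the 27 genes, against 6.71% of all genes, and none was higher, against 7.36%. *Me1* was 5.08-fold lower (4.47 to 5.79) in Rescue than in KO, *Fasn* 2.64-fold lower (2.44 to 2.85) and *Acaca* 2.22-fold lower (1.88 to 2.62), and *Scd1* was the last of the 4. No sterol gene was past 2-fold, but none of the 17 had a log2 ratio of Rescue over KO above 0. The sterol median was -0.44, against -0.03 for all genes. The fatty acid median was -0.79, with 1 of 10 genes above 0. Relative to Het, 2 of 26 genes with enough UMIs were past 2-fold higher in Rescue, *Scd2* and *Elovl6* (2.10-fold higher, 1.85 to 2.40), against 3.3% of all genes, and none was lower, against 5.24%. With the total taken without the most abundant genes, or without barcodes of high Paneth content, 1 of them was past 2-fold, against 2.67% and 2.58% of all genes.

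In Fabp1-high barcodes, which carry the enterocyte markers, the sterol genes separated Rescue from KO. Past 2-fold lower in Rescue than in KO were 18 of the 27 genes, against 11.1% of all genes, and none was past 2-fold higher, against 10%. The 18 were 13 of the 17 sterol genes and 5 of the 10 fatty acid genes. The median log2 ratio was -1.17 for sterol genes and -0.90 for fatty acid genes, against 0.01 for all genes. With at most 10% mitochondrial UMIs, which left 41 barcodes in Rescue and 408 in KO, the medians were -3.37 and -2.69. The count past 2-fold lower was then 19, against 12.7% of all genes, and the median of all genes at that limit is not given here. The sterol genes summed to 789 CPM (769.9 to 809) in Rescue, 1682 CPM (1669 to 1695) in KO and 1025 CPM (999 to 1052) in Het, with Rescue below both other libraries. The fatty acid genes summed to 318 CPM in Rescue, 681 in KO and 366 in Het.

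The 12 enzymes from *Hmgcs1* to *Nsdhl*, in the order of the opening list, and *Insig1* were all past 2-fold lower in Rescue than in KO. *Cyp51* was at 40.9 CPM (36.7 to 45.6) in Rescue, 162 CPM (158 to 166) in KO and 65.3 CPM (58.8 to 72.4) in Het, and was 3.96-fold lower (3.54 to 4.43) in Rescue than in KO. *Pmvk* was at 42.2 CPM in Rescue, 160.3 in KO and 53.1 in Het, with Rescue 3.80-fold lower (3.41 to 4.25) than KO. *Mvk* was at 17.4 CPM in Rescue, 60.3 in KO and 23.9 in Het, with Rescue 3.47-fold lower (2.93 to 4.14) than KO. KO was the highest library for these genes, and the Rescue level lay below Het. *Lss*, *Fdft1*, *Mvd* and *Fdps* were also between 2.90-fold lower and 3.36-fold lower in Rescue than in KO, *Fdps* at 91.5 CPM in Rescue, 265 in KO and 92.6 in Het. *Hmgcs1* was at 84.1 CPM in Rescue, 191 in KO and 118 in Het, and *Idi1* at 45.3 CPM in Rescue, 99.4 in KO and 62.1 in Het. *Sqle*, *Insig1*, *Hmgcs1*, *Idi1*, *Nsdhl* and *Msmo1* were lower in Rescue than in KO by smaller folds, *Insig1* at 64.9 CPM in Rescue, 147 in KO and 112 in Het (2.27-fold lower, 2.08 to 2.49, in Rescue than in KO). The sterol genes not past 2-fold were *Srebf2*, *Sc5d*, *Dhcr7* and *Stard4*. *Dhcr7* was at 24.8 CPM in Rescue, 21.7 in KO and 40.2 in Het and *Stard4* at 139 CPM in Rescue, 88.1 in KO and 181 in Het, so both were lowest in KO. *Stard4* was 2.06-fold lower (1.91 to 2.21) in KO than in Het, the only member past 2-fold in that direction. With at most 10% mitochondrial UMIs, which left 11 Het barcodes, its log2 ratio was 1.36 and so of the opposite sign.

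Of the fatty acid genes in Fabp1-high barcodes, *Scd2* was 9.68-fold lower (7.59 to 12.6) in Rescue than in KO. It was still 6.48-fold higher (2.98 to 16.7) in Rescue than in Het. The Het level rested on 7 UMIs in 0.8% of 125 barcodes, which the counting interval does not take into account. *Scd1* had 2 UMIs in Rescue, 235 in KO and 3 in Het. *Me1* was at 51.9 CPM in Rescue, 159 in KO and 100.1 in Het, with Rescue 3.06-fold lower (2.77 to 3.38) than KO. *Fasn* was at 11.2 CPM in Rescue, 32.4 in KO and 14.7 in Het, with Rescue 2.89-fold lower (2.33 to 3.61) than KO, and *Acaca* at 3.82 CPM in Rescue, 8.83 in KO and 4.31 in Het. *Elovl6* was at 203 CPM in Rescue, 349 in KO and 196 in Het, within 2-fold in every comparison of these barcodes. The summed enterocyte markers of the Fabp1-high barcodes were at 54510.4 CPM in Rescue, 79232 in KO and 69545 in Het, so the sum was lowest in Rescue. Of the 7 markers, *Sis*, which encodes sucrase-isomaltase, was at 2237 CPM in Rescue, 264 in KO and 2260.3 in Het, *Fabp2* was also lowest in KO, and *Alpi* was lowest in Het. Goblet markers summed to 1107 CPM in Rescue, 2891 in KO and 142 in Het and Paneth markers to 105 CPM in Rescue, 252 in KO and 6851 in Het in these barcodes, whose median mitochondrial share was 14.2% in Rescue, 9.92% in KO and 15.2% in Het. The part of these markers and of the mitochondrial share in the difference was not tested. With *Fabp1* at 2500 CPM the count lower in Rescue than in KO was 12, against 11.2% of all genes, and with 10000 CPM it was 19, against 11.1%.

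In Fabp1-high barcodes the medians of KO over Het and Rescue over Het were less wide than those of Rescue over KO. The sterol median log2 ratio was 0.74 for KO over Het and -0.44 for Rescue over Het, against -0.15 and -0.13 for all genes. For Rescue over Het the sterol median in Mki67-positive barcodes had the opposite sign, at 0.38. Past 2-fold higher in KO than in Het were 10 genes (*Mvk*, *Pmvk*, *Fdps*, *Fdft1*, *Sqle*, *Cyp51*, *Fasn*, *Scd1*, *Scd2* and *Acaca*), against 9.54% of all genes, and *Stard4* was lower, against 17.2%. Past 2-fold lower in Rescue than in Het were *Mvd* and *Lss*, against 6.72% of all genes, and higher was *Scd2*, against 2.07%. With each barcode weighted equally the count lower in Rescue than in Het was 6, against 11.9% of all genes, and with ratios centred on all genes it was 1, against 5.24%. *Mvd* was at 10.9 CPM in Rescue, 32.3 in KO and 21.7 in Het and *Lss* at 5.67 CPM in Rescue, 18.8 in KO and 12.4 in Het. The comparisons KO over Het, Rescue over KO and Rescue over Het share libraries, so their ratios are not independent of each other.

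**Figure D2:**
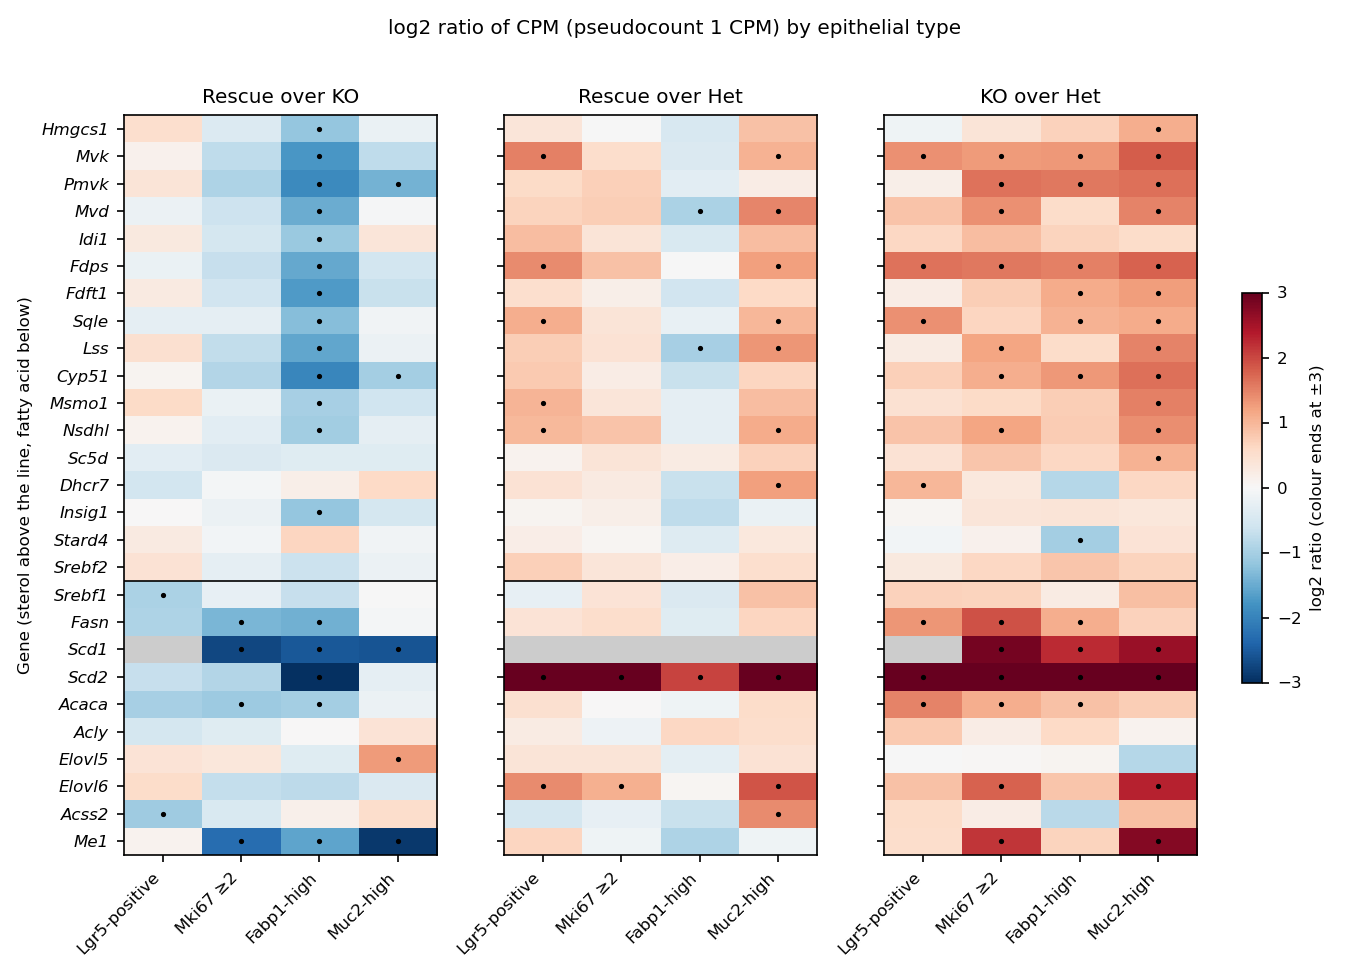
Heat map of the log2 ratio of CPM (1 CPM added to each level) for the 27 genes in rows and the 4 epithelial types in columns, with a panel each for the comparisons named above it. Black dots mark ratios past 2-fold, grey cells had under 20 UMIs in both libraries, and colours end at ±3. The Rescue over KO panel has its run of low ratios in the Fabp1-high column, where 18 genes are past 2-fold lower, and in KO over Het no gene is past 2-fold lower in the Mki67-positive column.

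Within a library, levels also followed the cell type. In every library each of the 17 sterol genes was lower in Lgr5-positive than in Mki67-positive barcodes, with a median ratio of 0.610 in Rescue, 0.402 in KO and 0.522 in Het. The types shared barcodes, 46 of 70 Lgr5-positive barcodes in Rescue being Mki67-positive too. Fabp1-high over Mki67-positive gave a median ratio of 0.455 in Rescue, 0.777 in KO and 0.904 in Het for the sterol genes. At or below 0.5 were 9 of 17 sterol genes in Rescue, 1 in KO and none in Het. The step down between cycling cells and enterocytes was thus deepest in Rescue. *Sc5d* was highest in Fabp1-high barcodes of the 4 types in every library, as were *Elovl6* and *Me1*. *Idi1*, *Fdps*, *Mvk* and *Nsdhl* were highest in Mki67-positive barcodes in every library, and so were *Fasn*, *Scd2*, *Acaca*, *Srebf1* and *Elovl5*. *Acly* and *Acss2* were never highest in either of these 2 types. Muc2-high barcodes were the highest type for 8 of the 17 sterol genes in Rescue, 5 in KO and 1 in Het. Mki67-positive barcodes were so for 7 in Rescue, 10 in KO and 12 in Het.

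**Figure D3:**
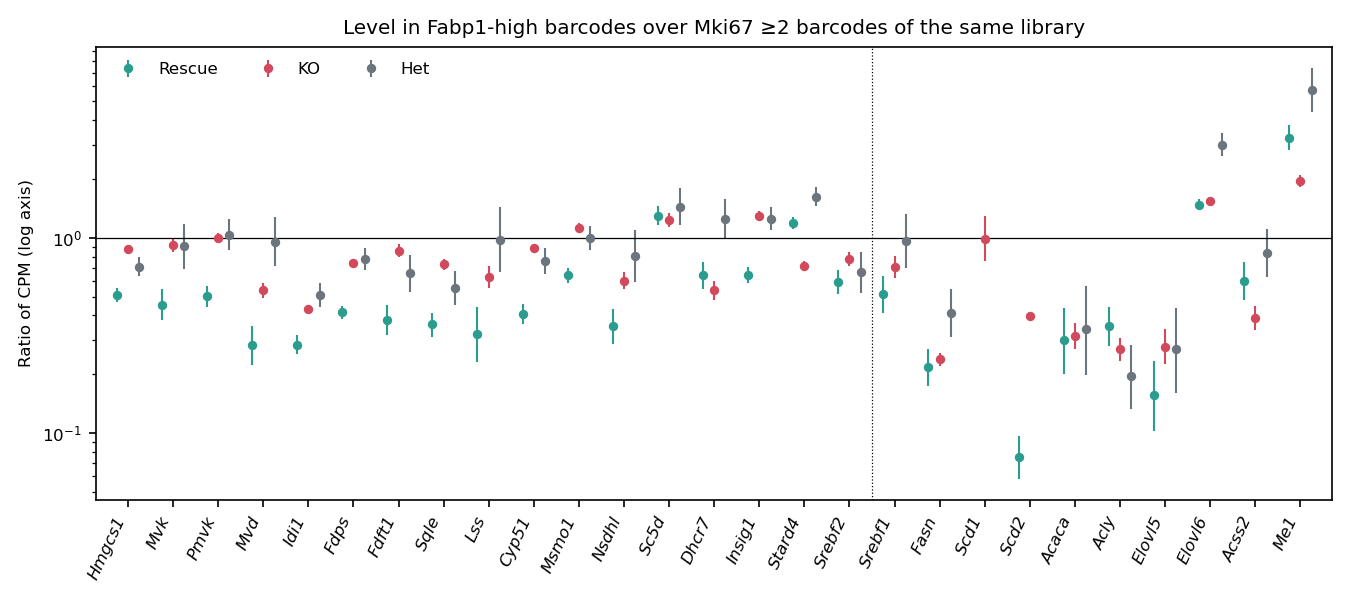
Ratio of each gene's CPM in Fabp1-high barcodes over that in Mki67-positive barcodes of the same library (log axis), with points for Rescue, KO and Het and bars for exact 95% intervals. Genes with under 20 UMIs in both types are left out, and the line at 1 marks equal levels. Rescue points are lowest for most sterol genes (median 0.455, against 0.777 in KO and 0.904 in Het), and *Elovl6* and *Me1* lie above 1 in each library.

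Lgr5-positive barcodes were few, with 17 in KO. There the sterol genes summed to 895 CPM (870.3 to 920.4) in Rescue, 820.0 CPM (739 to 908) in KO and 547 CPM (529.6 to 564) in Het and the fatty acid genes to 264 CPM in Rescue, 376 in KO and 163 in Het. Past 2-fold higher in KO than in Het were 7 of the 26 genes with enough UMIs, against 10.8% of all genes, and none was lower, against 3.9%. *Fdps* was at 121 CPM in Rescue, 139 in KO and 44.4 in Het, and *Fasn* at 39.2 CPM in Rescue, 75.1 in KO and 29.4 in Het. Past 2-fold higher in Rescue than in Het were also 7, against 4.17%, and none was lower, against 5.75%. In Rescue over KO none was higher, against 2.93%, and 2 were lower, against 7.57%. Het was thus lowest in both sums, as it was in Mki67-positive barcodes. With barcodes of exactly 1 type, which left 22 in Rescue and 104 in Het, the sterol median of Rescue over Het was -0.16, against 0.72 with all Lgr5-positive barcodes. Paneth cell markers in these barcodes summed to 65390.4 CPM in Rescue, 150.3 in KO and 107999 in Het.

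In Muc2-high barcodes the shares past 2-fold were high for all genes, which limits what the members' counts show. Past 2-fold higher in KO than in Het were 16 of the 27, against 29.3% of all genes, and none was lower, against 7.42%. Past 2-fold higher in Rescue than in Het were 10 of 26, against 32.1%, a share near that of all genes, and none was lower, against 2.77%. For Rescue over KO the counts were 1 higher, against 19.8%, and 4 lower, against 11.7%. *Me1* was at 6.99 CPM in Rescue, 57.9 in KO and 7.72 in Het, again highest in KO with Rescue and Het close together. Goblet markers summed to 84505 CPM in Rescue, 206998 in KO and 37838 in Het and Paneth markers to 56789 CPM in Rescue, 7820.4 in KO and 233619 in Het in these barcodes, so the type was not alike between libraries. Without barcodes of over 1% Paneth UMIs the sterol median was 0.13 for KO over Het, against 1.26 with them, and -0.043 for Rescue over Het, against 0.92 with them. Each of the 12 sterol genes past 2-fold higher in KO than in Het was no longer so in 2 to 7 of the 14 alternatives.

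Over all gated barcodes the sterol genes summed to 1287 CPM (1275 to 1298) in Rescue, 1816 CPM (1805 to 1826) in KO and 878 CPM (865 to 892) in Het and the fatty acid genes to 404 CPM in Rescue, 666 in KO and 247 in Het. Past 2-fold higher in KO than in Het were 14 of 27, against 10.3% of all genes, and none was lower, against 25.3%. In Rescue over KO 1 was higher, against 22.7%, and 3 were lower, against 11%. *Fdps* and *Scd2* were past 2-fold higher in Rescue than in Het, against 3.31%, and none was lower, against 11.6%. Without barcodes of over 1% Paneth UMIs, 8 genes were past 2-fold higher in KO than in Het, against 7.77% of all genes. In such sums, more cells of a type and more RNA per cell cannot be told apart.

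**Figure D4:**
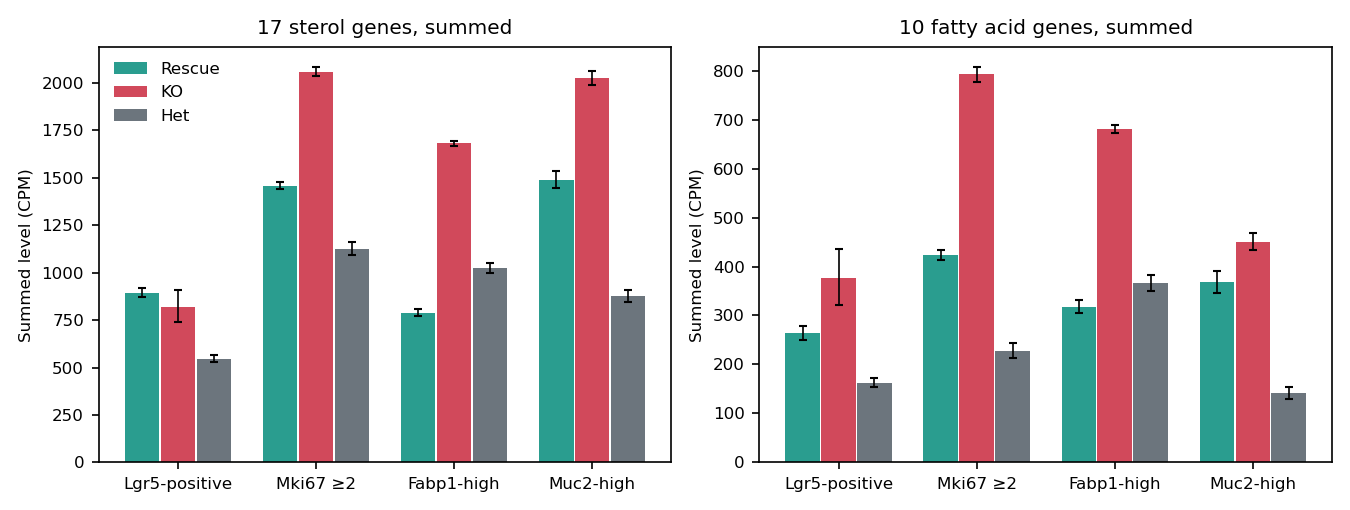
Summed level (CPM) of the 17 sterol genes and of the 10 fatty acid genes in the 4 epithelial types, with bars for Rescue, KO and Het starting at 0 and lines for exact 95% Poisson intervals. KO is highest in 3 of the 4 types for the sterol genes, and Rescue is lowest in Fabp1-high barcodes for both sums.

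Single barcodes gave the same order of libraries as the sums. With each barcode thinned to 5000 UMIs, the sterol genes had a median of 7 UMIs (quartiles 5 to 9.25) per Mki67-positive barcode in Rescue, 9 (6 to 12) in KO and 6 (3 to 8) in Het. In Fabp1-high barcodes the median was 3 (1 to 5) in Rescue, 7 (4 to 13) in KO and 4 (2 to 6) in Het, after 36, 79 and 14 shallower barcodes were left out in the same order of libraries. Without thinning, the median sterol level per Fabp1-high barcode was 625 CPM in Rescue, 1461 in KO and 749 in Het. The upper quartile in Rescue lay below the KO median, while the ranges of single barcodes overlapped. Some genes were held by fewer barcodes than others: the 10% of Fabp1-high barcodes with the most *Scd2* UMIs held 92.4% of them in Rescue and 61.7% in KO, whereas for *Fdps* they held 50.3% in Rescue, 35.2% in KO and 41.7% in Het. Barcodes with a larger sterol share also had a larger fatty acid share: the rank correlation was 0.55 over 247 Mki67-positive barcodes in Rescue, 0.68 over 213 in KO and 0.52 over 77 in Het. It was 0.50 in Rescue, 0.54 in KO and 0.43 in Het in Fabp1-high barcodes. The barcodes of a library share its depth and capture, and the sterol share itself had a rank correlation of 0.57 with depth in Fabp1-high barcodes of Rescue, -0.04 in KO and 0.26 in Het. For the fatty acid share it was 0.39, 0.09 and 0.28. In Mki67-positive barcodes the values were 0.04, 0.24 and -0.007 for the sterol share and 0.21, 0.31 and 0.06 for the fatty acid share. With the mitochondrial share, the sterol share of Fabp1-high barcodes had 0.18 in Rescue, -0.25 in KO and -0.15 in Het. The part of depth in the correlation of the 2 shares was not tested.

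**Figure D5:**
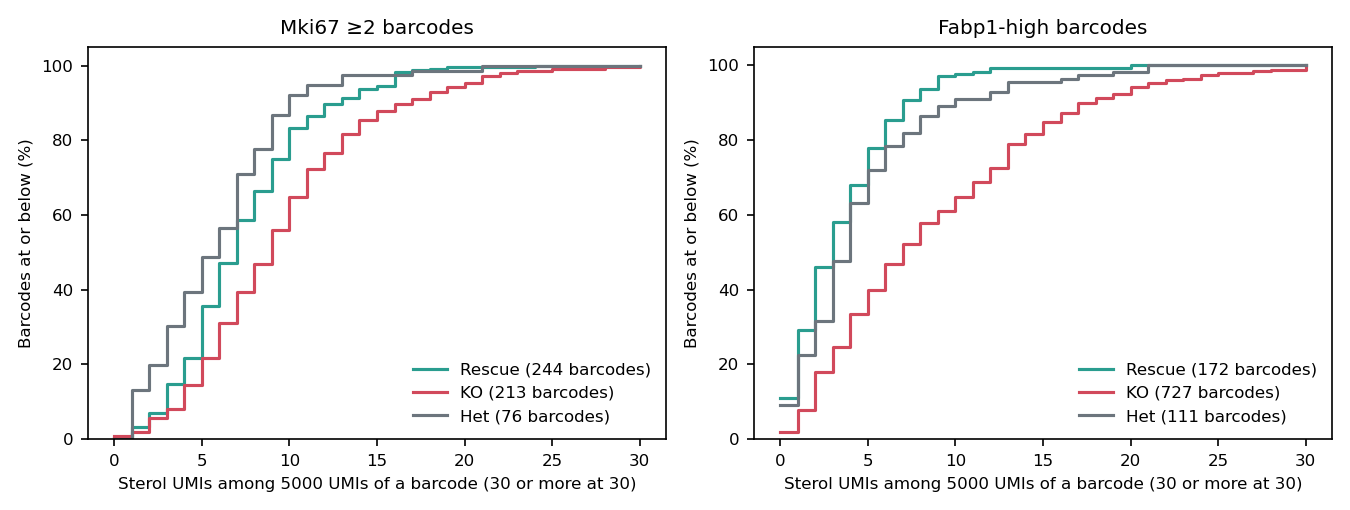
Cumulative share of barcodes (%) by the number of sterol UMIs among 5000 UMIs of a barcode, for Mki67-positive barcodes (left) and Fabp1-high barcodes (right), with a line for Rescue, KO and Het. At the quartiles and the median the KO line lies to the right of the others in both panels, with a median of 9 UMIs in Mki67-positive and 7 in Fabp1-high barcodes. At 0 UMIs in the left panel the KO line lies above the others (0.94% of barcodes, against 0.41% in Rescue and 0% in Het).

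Other genes of the same pathways were read from lists fixed by name, in Mki67-positive barcodes for KO over Het. Of 14 other sterol genes 3 were past 2-fold higher and none lower, against 8.46% of all genes higher and 7.58% lower, with a median log2 ratio of 0.60, against 0.08 for all genes. The lowest were *Lbr*, a reductase of the nuclear envelope, at 93.7 CPM in KO and 96.8 in Het, and *Ggps1*, which makes geranylgeranyl diphosphate, at 11.1 CPM in KO and 11.4 in Het. Of 13 genes of sterol export, esterification and the LXR receptors 10 had enough UMIs, of which 3 were past 2-fold higher and 1 lower, against the same shares of all genes (8.46% and 7.58%). *Npc1l1*, the intestinal cholesterol importer, was 2.64-fold higher (1.90 to 3.76) and *Lpcat3*, a phospholipid acyltransferase, 2.53-fold higher (2.17 to 2.96) in KO than in Het. *Soat1*, an enzyme that esterifies cholesterol, was 2.69-fold lower (2.30 to 3.14), and *Nr1h3*, which encodes LXR alpha, was at 13.1 CPM in KO and 20.7 in Het. Of 18 other fatty acid and glycerolipid genes 15 had enough UMIs, of which 6 were past 2-fold higher and 1 lower, against 8.46% and 7.58% of all genes. *Agpat2*, an acyltransferase of glycerolipid synthesis, was at 208 CPM in KO and 49.9 in Het (4.16-fold higher, 3.60 to 4.84), and *Elovl1*, an elongase of long saturated chains, was 3.53-fold higher (2.96 to 4.25) in KO than in Het. *Mlxipl*, which encodes the carbohydrate response factor ChREBP, was 2.22-fold lower (1.86 to 2.65), and *Fads1*, a desaturase of polyunsaturated chains, 1.06-fold higher (0.891 to 1.26). In Fabp1-high barcodes 2 of the 14 other sterol genes were past 2-fold lower in Rescue than in KO, near the 11.1% of all genes. Their median log2 ratio of Rescue over KO there was nevertheless -0.65, against 0.01 for all genes.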

How the data were processed

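Crypts were dissociated with TripLE and 4000 to 5000 cells harvested per sample, per the labels' protocols. The deposited values are UMI counts per gene and barcode, made by the authors with Cell Ranger, version 3.1.0 for Rescue and 3.0.2 for KO and Het per the file headers, and 1.3.0 per the submitters' processing notes. The sources used here do not give the genome build, and the Rescue library differed from the others in Cell Ranger version. The tables held 3449 barcodes and 64355665 UMIs in Rescue, 4786 and 85525811 in KO, and 6152 and 58433966 in Het. The mitochondrial limit alone removed 38.3% of barcodes in Rescue, 54.1% in KO and 66.3% in Het.

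Groups followed the GEO labels. Counts were summed per library and type, CPM given exact Poisson intervals and ratios conditional exact binomial ones at 95% confidence (numpy 2.4.6, scipy 1.17.1, pandas 2.3.3). Intervals and limits cover counting error only. No doublet caller was run, and barcodes in the top 2% of UMIs were left out as an alternative. Ratios past 2-fold needed 20 UMIs in 1 library, and medians used a pseudocount of 1 CPM. A gene could thus be counted through only the library in which it was high. This held for *Scd1* against KO and, in each epithelial type, for *Scd2* against Het. A gene with no UMI was bounded at 3 counts over the type. The members, lists, types and motifs were chosen with earlier results of these data known. All 27 members are named, and for each list of other genes the 2 highest and 2 lowest ratios of KO over Het in Mki67-positive barcodes. The 2 highest of the other sterol genes are not reported here. The *Mvk* and *Fasn* promoters were added after their matches were seen. Of the gene identifiers 98.8% were in GENCODE vM21, and promoter windows came from RefSeq (GRCm38.p6). Counts for KO over Het in Mki67-positive barcodes were simulated with 10690 genes, as Poisson draws around a shared profile with known folds. These draws held no spread between cells, animals or libraries, so only counting error was checked. Genes simulated at 4-fold, 2.5-fold, 0.4-fold and 0.25-fold had a median ratio of 3.99, 2.54, 0.389 and 0.253. Of them 100%, 98%, 92% and 100% were called, and of unchanged genes 0.343%. In all 14 alternatives were tried, of which the one on Paneth UMIs was chosen after seeing the data.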

Additional observations from a re-analysis of the deposited data

Results flagged for a closer look

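Rescue over Het ran in opposite directions in Muc2-high and Fabp1-high barcodes for the sterol genes as a list. In Muc2-high barcodes 16 of 17 had a log2 ratio above 0 (median 0.92), and in Fabp1-high barcodes 2 of 17 (median -0.44). The median was also above 0 in Lgr5-positive (0.72) and Mki67-positive barcodes (0.38), so Fabp1-high barcodes were the only type below 0. Without barcodes of over 1% Paneth UMIs the Muc2-high median was -0.043. The 2 genes flagged were *Mvd* and *Lss*. *Mvd* was at 38.6 CPM in Rescue and 13.3 in Het in Muc2-high barcodes, and at 10.9 CPM in Rescue and 21.7 in Het in Fabp1-high barcodes, so its log2 ratio was 2.41 higher in the first type. *Lss* was at 22.8 CPM in Rescue and 8.52 in Het in Muc2-high barcodes, and at 5.67 CPM in Rescue and 12.4 in Het in Fabp1-high barcodes, a difference of 2.33 on the log2 scale. The median log2 ratio of all genes was 0.69 in Muc2-high and -0.13 in Fabp1-high barcodes. Over the alternatives that gave a value, *Mvd* lay between 0.50 and 1.47 in Muc2-high and between -1.15 and -0.30 in Fabp1-high barcodes on the log2 scale, and was no longer past 2-fold in 4 and 5 of them. *Lss* lay between 0.63 and 1.44 in Muc2-high and between -1.61 and -0.64 in Fabp1-high barcodes, and was no longer past 2-fold in 5 and 1 of them. With 1 library per genotype the difference between the types was not tested.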

How the results depend on the processing

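No paired analysis was possible because each genotype had 1 library, and for the same reason no replicate could be left out. Over 14 alternatives, 118 member values past 2-fold gave 1641 repeats, of which 214 were no longer past 2-fold and 8 had changed sign. Not every repeat could lose a call: the pseudocount does not enter the calls, and lower UMI minimums per gene could only add calls. The *Fabp1* and *Muc2* cut-offs left all gated, Lgr5-positive and Mki67-positive barcodes as they were. The 18 counts followed are of members past 2-fold in all gated, Mki67-positive and Fabp1-high barcodes. Those that moved are given with the share of all genes past 2-fold under the same setting in brackets. The count lower in Rescue than in KO in Fabp1-high barcodes lay between 12 and 19 throughout. With at most 10% mitochondrial UMIs, KO over Het had 1 lower (15.3%) in all gated, 21 higher (18%) in Mki67-positive, and 16 higher (12.7%) and 0 lower (2.88%) in Fabp1-high barcodes. Rescue over KO then had 10 lower (15.1%) in all gated and 9 lower (9.34%) in Mki67-positive barcodes. Rescue over Het had 6 higher (12.8%) in all gated, 4 higher (10.6%) in Mki67-positive, and 0 higher (49.4%) and 0 lower (11.3%) in Fabp1-high barcodes. *Stard4*, KO over Het in Fabp1-high barcodes, had a log2 ratio of 1.36. Fewer barcodes entered these sums, with 11 Fabp1-high barcodes in Het. With barcodes of exactly 1 type, Rescue over KO had 0 higher (20.5%) in all gated barcodes, KO over Het 6 higher (6.1%) in Mki67-positive barcodes, and Rescue over Het 1 higher (2.41%) there. In Lgr5-positive barcodes, which then numbered 22 in Rescue, 7 in KO and 104 in Het, the sterol median of Rescue over Het was -0.16. For the same comparison *Sqle* was at -0.094, *Nsdhl* at -0.16 and *Elovl6* at -0.38, and *Mvk* was at -0.044 for KO over Het. With ratios centred on the median of all genes, Rescue over KO had 0 higher (15.2%) and 6 lower (15.1%) in all gated barcodes, KO over Het 0 lower (14.2%) and Rescue over Het 1 lower (5.24%) in Fabp1-high barcodes, and the fatty acid median of Rescue over Het in Muc2-high barcodes was -0.056. With each barcode weighted equally, KO over Het had 2 lower (30.3%) in all gated and 0 lower (18.6%) in Fabp1-high barcodes, and Rescue over KO 0 higher (19.4%) and 5 lower (11.2%) in all gated barcodes. Rescue over Het then had 1 higher (3.08%) in Mki67-positive and 2 higher (3.2%) and 6 lower (11.9%) in Fabp1-high barcodes, with *Mvk* in Muc2-high barcodes at -0.28. With mitochondrial, ribosomal protein and the 50 most abundant genes left out of the total, KO over Het had 8 higher (7.71%) and 1 lower (32.3%) in all gated barcodes. Rescue over Het had 1 higher (2.56%) in all gated, 1 higher (2.67%) in Mki67-positive and 1 lower (5.56%) in Fabp1-high barcodes, and its fatty acid median in Muc2-high barcodes was -0.023. Without the top 2% of barcodes by UMIs, KO over Het had 9 higher (9.25%) and 1 lower (29.2%) in all gated barcodes, and Rescue over Het 1 higher (2.84%) in Mki67-positive barcodes. Without barcodes of over 1% Paneth UMIs, an alternative chosen after seeing the data, KO over Het had 8 higher (7.77%) and 1 lower (31.3%) in all gated barcodes, and Rescue over Het 1 higher (2.25%) in all gated and 1 higher (2.58%) in Mki67-positive barcodes. In Muc2-high barcodes, the sterol median of Rescue over Het was then -0.043, with *Fdps* at -0.043 and *Mvk* at -0.16. Rescue over Het in Fabp1-high barcodes had 1 lower (6.67%) with at least 5000 UMIs per barcode, 1 lower (6.72%) with at least 5 *Epcam* UMIs, 1 lower (5.94%) with *Fabp1* at 2500 CPM, and 0 higher (2.17%) with *Fabp1* at 10000 CPM. Lower UMI minimums per gene moved no count past 1.5 times, and the pseudocount could not move one. The cause of the moved counts was not tested, also where fewer barcodes entered. Spread between animals is not measured, *Scd1* rests on under 20 UMIs in Rescue and Het in every type, and KO had 17 Lgr5-positive barcodes.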

Other observations

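Barcodes with at least 2 *Ptprc* UMIs and no *Epcam* UMI, which lie outside the epithelium, also held the members. Their sterol genes summed to 915 CPM (878 to 954) in Rescue, 648 CPM (596 to 704) in KO and 929 CPM (884 to 975) in Het, and their fatty acid genes to 299 CPM in Rescue, 285 in KO and 373 in Het. *Mvk*, the mevalonate kinase, was at 48.7 CPM (40.4 to 58.2) in Rescue, 22.0 CPM (13.2 to 34.4) in KO and 167 CPM (149 to 187) in Het there, so Het was highest, whereas in the epithelial types Het was below KO. *Elovl5*, an elongase of polyunsaturated chains, was at 41.4 CPM in Rescue, 45.2 in KO and 129.8 in Het, again highest in Het. *Acly*, which makes cytosolic acetyl-CoA, was at 77.1 CPM in Rescue, 105 in KO and 67.2 in Het. These barcodes hold several cell kinds, whose proportions were not compared between libraries here.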
